A study of Mus musculus with 10 samples.

Results

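Cocaine was set against saline in 3 pairs of ribosome-bound RNA libraries from the mouse striatum, each pair made of the cocaine and the saline library with the same replicate number (1, 2 and 4). These 6 libraries were chosen by that number from 10 in the series, of which 8 were immunopurified (IP). All mice were adults of the Drd2-TRAP line CP101, also called Drd2-EGFP/Rpl10a, so the saline group carried the same transgene, which tags ribosomal protein L10a with EGFP under the control of the dopamine D2 receptor gene. The groups were intravenous self-administration of saline and of cocaine with short access to the drug. For doses, session numbers and the time of dissection the sources used here give nothing. The whole striatum was taken, with no separation of its dorsal and ventral parts. Cocaine IP 3 and 5 had no saline partner of their number, so their levels are given only beside those of the pairs. The labels do not say that libraries came from separate mice, so p-values measure the spread between these samples, which may be technical.

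Cocaine blocks the reuptake of dopamine. In the striatum, the medium spiny neurons (MSNs) that form the indirect pathway carry the D2 receptor, which lowers cAMP, whereas those of the direct pathway carry the D1 receptor, which raises it. Translating ribosome affinity purification (TRAP) pulls down tagged ribosomes with their RNA, so the RNA measured is the part bound to ribosomes in cells that use the Drd2 gene, which in the striatum also include cholinergic interneurons.

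Gene reads came to between 25610349 and 31581237 per library in the 6, and replicates of a group differed by far more than sampling noise (chi-square per degree of freedom 31.2 to 88.5). The 11 indirect-pathway markers summed to 7550 to 13300 CPM (gene reads scaled to library size) in these libraries against 1910 CPM in the saline input, and the 9 direct-pathway markers to 113 to 151 CPM against 990 CPM, as the labelled cell type has them. Sequencing lane differed within every pair: lanes 7 and 6 for saline and cocaine in pairs 1 and 2, lanes 6 and 4 in pair 4. Within the pairs, lane and treatment therefore cannot be told apart. A fit with lane as a term in place of the pairs rests on lane 6, which held saline IP 4 and cocaine IP 1 and 2. In bulk RNA, fewer cells of a type and less RNA per cell cannot be told apart.

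No gene passed an adjusted p of 0.05 (0 of 13580 tested, 0%; edgeR quasi-likelihood test with the pair as a block, Benjamini-Hochberg adjustment), and the smallest adjusted p was 0.147. At an unadjusted p under 0.05 (edgeR) there were 411 genes higher and 491 lower after cocaine, 902 of the 13580 tested. With no difference at all, a share of 0.05 of the genes would be expected there, so these counts alone do not show a shift. By other tools, DESeq2 with the same block called 4 genes, among them Tra2a, Stk32c and Dst, and limma-voom called 0. Leaving out pair 1, 2 or 4 gave 17, 6 and 8 calls in edgeR, with Dst among those without pair 1, Stk32c without pair 2 and Zic1 without pair 4. With no filter on low counts there were 46. Where the mean was 5 CPM or more, the median standard error of the log2 difference was 0.102, and 99.7% of the 95% intervals lay within 1 log2 unit of no difference.

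Genes with the same sign in all 3 pairs made up 12.9% of those tested on the higher side (1749) and 14.6% on the lower side (1987). Random signs in 3 pairs would also give a share near these in each direction, so the counts alone do not show a shared shift. With a log2 difference of at least 0.32 in every pair, these shares were 0.913% (124 genes) and 0.935% (127). Among the 9621 genes averaging 5 CPM or more, 13.1% were higher in all 3 pairs (1263) and 15.3% lower (1471), but only 11 and 10 of them reached that size in each pair. The 3 libraries of a group did not overlap those of the other for 357 genes on the higher and 401 on the lower side, 5.58% of those tested. The differences of 1 pair said little about those of the next: over the 9621 genes they correlated at 0.077 between pairs 1 and 2, 0.020 between pairs 1 and 4 and 0.082 between pairs 2 and 4 (across genes, which are not independent; pairs 1 and 2 share their 2 lanes). The standard deviation of the log2 difference over these genes was 0.240, 0.213 and 0.222 in the 3 pairs.

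**Figure D1:**
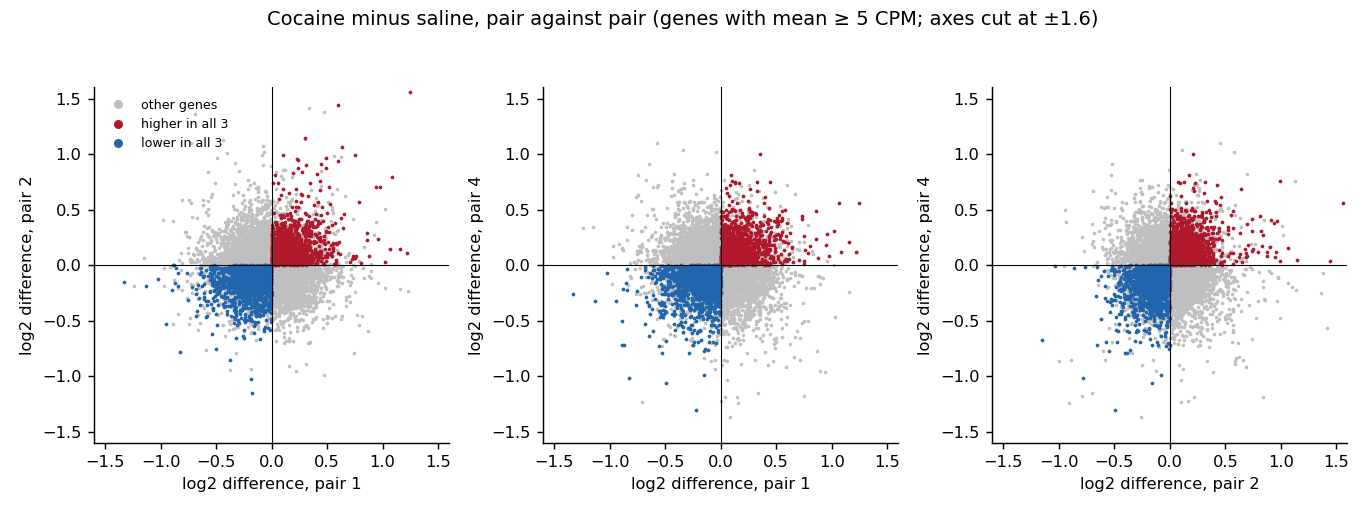
Log2 differences, cocaine minus saline, of 1 pair on each axis for genes averaging 5 CPM or more. Red and blue points are the 1263 genes higher and 1471 lower in all 3 pairs; the clouds are round, with correlations of 0.077, 0.020 and 0.082.

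Genes higher and lower in all 3 pairs differed in base composition, measured on whole transcripts. The middle of the coding sequence is shown for 3 genes with small p values, chosen because they follow the pattern. Tra2a and Kdm7a were higher and Stk32c lower in all 3 pairs. Each line is the middle 120 bases of the coding sequence, 5′ to 3′ on the coding strand, spliced from GENCODE transcripts on GRCm38, with G and C in capitals.
Tra2a: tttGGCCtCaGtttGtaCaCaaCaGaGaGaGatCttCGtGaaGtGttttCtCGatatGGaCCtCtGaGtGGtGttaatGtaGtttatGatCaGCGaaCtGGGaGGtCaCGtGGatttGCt
Kdm7a: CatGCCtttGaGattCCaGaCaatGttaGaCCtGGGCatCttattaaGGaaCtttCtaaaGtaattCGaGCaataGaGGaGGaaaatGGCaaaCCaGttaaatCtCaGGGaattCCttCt
Stk32c: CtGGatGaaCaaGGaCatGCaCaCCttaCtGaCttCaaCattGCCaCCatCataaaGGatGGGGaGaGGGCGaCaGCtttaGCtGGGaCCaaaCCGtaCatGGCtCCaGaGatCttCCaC
G and C made up 44.2% and 39.2% of these windows in Tra2a and Kdm7a, against 50.8% in Stk32c. Over the whole coding sequence the values were 50%, 45.2% and 58.1%. Of the genes next to them by p, Zic1 (higher) had 62.1% and Dst (lower) 50.2% over the coding sequence, the latter close to Tra2a. The same windows held 55% in Zic1 and 52.5% in Dst, both above Stk32c. Coding GC of single genes therefore does not separate the directions.

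Across genes, those higher in all 3 pairs were poorer in G and C. Their median transcript GC content was 46.5% (quartiles 43.2% and 50.8%, 1227 of 1263 genes matched), against 54.0% (49.9% and 57.4%, 1439 of 1471) in those lower in all 3 pairs and 50.2% in all genes of at least 5 CPM. In the decile poorest in GC (33.8% to 42.5%), the median log2 differences were 0.07, 0.10 and 0.03 in pairs 1, 2 and 4; 28.6% of these genes were higher in all 3 pairs and 4.35% lower. In the decile richest in GC (58.0% to 71.1%) the medians were −0.07, −0.13 and −0.08, with 3.82% higher and 32.2% lower. Spearman's rho between GC content and the difference across genes was −0.169, −0.355 and −0.164 in the 3 pairs, while for transcript length it was −0.107, 0.106 and 0.121. Once the trend on GC content was taken out of each library, 1225 genes were higher and 1286 lower in all 3 pairs, of which 965 and 1047 were the same genes as before (76.4% and 71.2% of the first counts), and the correlations between pairs became 0.029, −0.001 and 0.037.

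**Figure D2:**
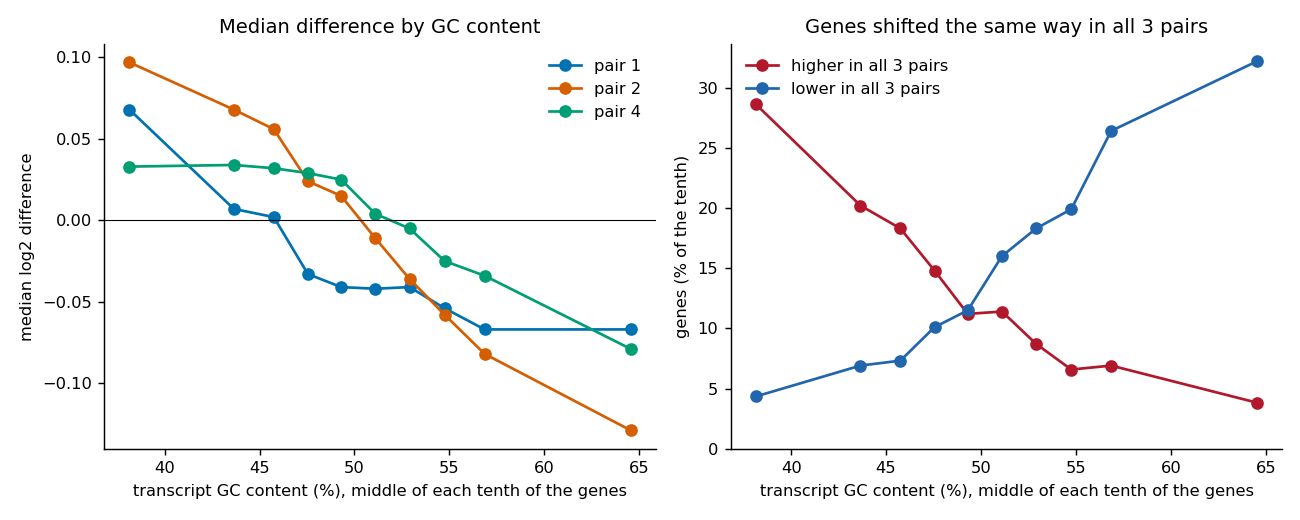
Genes averaging 5 CPM or more, in deciles of transcript GC content (horizontal axis, percent). Left, the median log2 difference in each pair falls from the GC-poor to the GC-rich decile in every pair; right, the share higher in all 3 pairs falls from 28.6% to 3.82% and the share lower climbs from 4.35% to 32.2%.

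Genes averaging 5 CPM or more were ranked by their smallest difference in any pair, and the 12 leading ones on the higher side included Zic1, Ap1s3, Hivep1, Arid3a, Efr3a, Atic, Wdr20, Etv1, Tra2a, Homer2 and Slc25a1. On the lower side they included AK030646, Pstpip2, Pcnt, Rilpl2, Extl1, Kcnh3, Tns2, Trim11, Abhd11os, Fibcd1 and Fam73b. Fitted differences ran from 1.28-fold to 2.20-fold higher and from 1.28-fold to 1.85-fold lower, with adjusted p (edgeR) of 0.147 to 0.747. The ranking used these differences, so they are a description. The last gene on each list, Slc25a1 and Fam73b, had a smallest difference of 0.320 and 0.316, and the next, Zfp791 and Dpagt1, 0.310 and 0.314. Libraries of the groups did not overlap for 7 of the 12 higher and 5 of the 12 lower genes. Over all 13580 genes tested this held for 357 higher and 401 lower, 5.58% in both directions together. The share among genes of at least 5 CPM was not computed. The ranking itself favours genes without overlap. Cocaine IP 3 and 5 both lay on the cocaine side of the saline mean for 8 of 12 in each direction. For some genes the margin was very small. Cocaine IP 3 had 3.41 CPM of Zic1 and 4.27 CPM of Hivep1, beside saline means of 3.23 and 4.21 CPM. It had 33.4 CPM of Kcnh3, beside 33.7 CPM. The saline libraries were part of the ranking, and the share over all genes was not computed. All 24 kept their direction in all 3 pairs with the GC trend removed. The ranking made this likely: their smallest difference was 0.316, while the median of a GC decile reached at most −0.13 in a pair. AK030646 had no GC value, so no trend was removed for it.

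**Figure D3:**
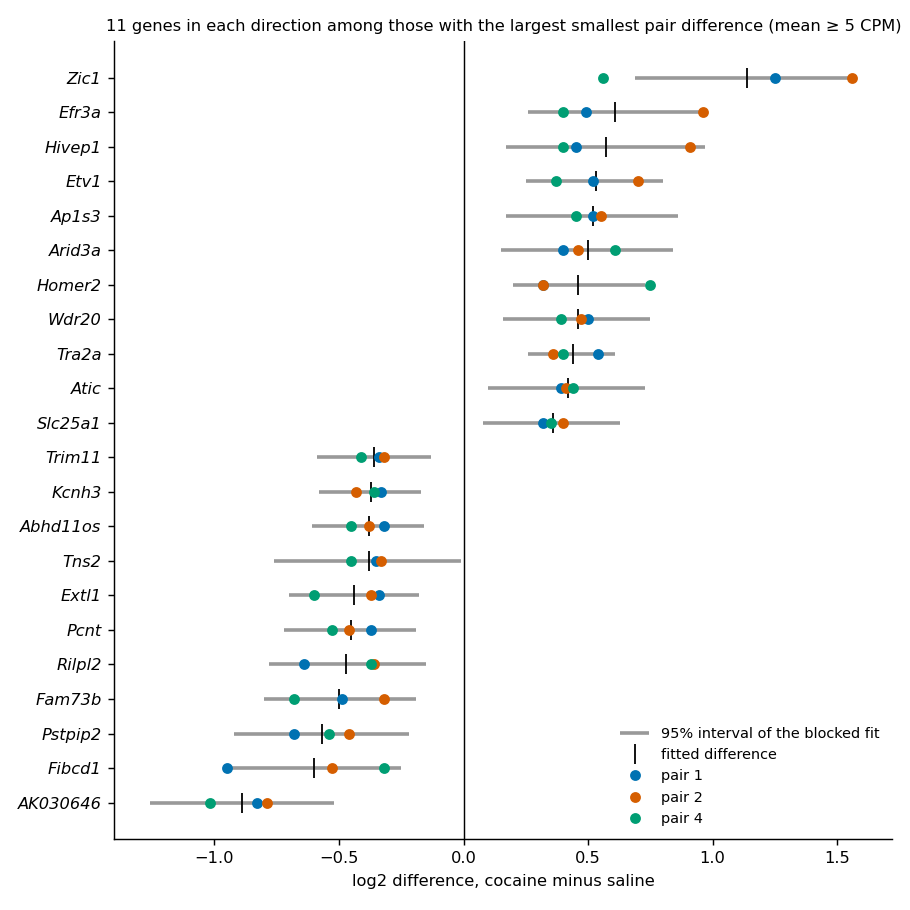
Log2 difference, cocaine minus saline, of 11 of the leading genes in each direction. Coloured points are pairs 1, 2 and 4, the black tick the fitted value and the grey bar its 95% interval; all points of a gene lie on 1 side of 0, which the choice of genes fixes.

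Among RNA-binding and chromatin proteins, Tra2a and Kdm7a were higher. Tra2a encodes a regulator of alternative splicing and lies at chr6:49243924-49264033 (GRCm38, minus strand). It had 104, 87.9 and 115 CPM in saline IP 1, 2 and 4 and 152, 113 and 151 CPM in cocaine IP 1, 2 and 4. Each cocaine library stood above its partner, though cocaine IP 2 lay below saline IP 4, and cocaine IP 3 and 5 had 137 CPM each. The fitted log2 difference was 0.44 ± 0.08 (SE, 3 pairs; edgeR adjusted p = 0.147), and 0.21 with lane as a term. Kdm7a, a histone demethylase gene, had 188, 158 and 185 CPM in saline and 235, 193 and 254 CPM in cocaine libraries of the same order. These groups did not overlap, and cocaine IP 3 and 5, at 255 and 205 CPM, were above all saline libraries too. Its log2 difference was 0.36 ± 0.08 (adjusted p = 0.475), and 0.21 with lane as a term.

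Several transcription factor genes on the higher side were depleted in IP RNA. Zic1, a zinc finger factor of brain development, had 4.57, 1.75 and 3.38 CPM in saline IP 1, 2 and 4 and 10.9, 5.30 and 5.02 CPM in cocaine IP 1, 2 and 4 (log2 difference 1.14 ± 0.21, adjusted p = 0.147). Cocaine IP 1 stood apart and cocaine IP 3 and 5, with 3.41 and 3.27 CPM, were at the saline level; input had 13.5 CPM. An exon of Zic1 overlaps Zic4 on the other strand, and no source used here says whether counting used strand. Etv1, an ETS factor, had 15.9, 7.27 and 11.2 CPM after saline and 22.8, 11.8 and 14.4 CPM after cocaine, against 69.2 CPM in input. Hivep1, a zinc finger factor, had 5.32, 1.99 and 5.31 CPM after saline and 7.27, 3.80 and 7.05 CPM after cocaine, against 39.3 CPM in input. The same holds for Efr3a, which anchors a lipid kinase at the plasma membrane: 9.60, 3.53 and 6.46 CPM after saline, 13.5, 6.94 and 8.54 CPM after cocaine, and 50.2 CPM in input. In these 4 genes saline IP 2 was the lowest of the 6 libraries.

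Other genes on the higher side had log2 differences of 0.36 to 0.52. Homer2, which encodes a postsynaptic scaffold protein, had 17.6, 15.1 and 12.3 CPM after saline and 22.1, 18.9 and 20.7 CPM after cocaine (0.46 ± 0.13, adjusted p = 0.550), and the groups did not overlap. It too was depleted in IP RNA, with 52.4 CPM in input. Ap1s3, a clathrin adaptor subunit, had 5.38, 5.04 and 5.28 CPM against 7.76, 7.42 and 7.25 CPM. Atic, of purine synthesis, had 6.69, 6.14 and 8.02 CPM against 8.78, 8.19 and 10.9 CPM. In neither gene did the groups overlap, but cocaine IP 5 had 5.39 CPM of Atic, below all saline libraries. Slc25a1, the mitochondrial citrate carrier, had a log2 difference of 0.36 ± 0.13. Raph1, which encodes the actin regulator lamellipodin, was named by its small p and had 0.44 ± 0.10 (adjusted p = 0.50). So was AK039878, a sequence record without a match in GENCODE, with 38.3, 41.6 and 32.9 CPM after saline and 45.6, 55.3 and 49.2 CPM after cocaine. Both were depleted in IP RNA: input had 68.3 CPM of Raph1, beside a saline IP mean of 27.4 CPM, and 69.5 CPM of AK039878.

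Among the genes on the lower side, Dst, for the cytoskeletal linker dystonin, had 240, 177 and 175 CPM after saline and 203, 127 and 109 CPM after cocaine (−0.47 ± 0.09, adjusted p = 0.178; −0.08 with lane as a term). Pcnt, for the centrosome protein pericentrin, had 15.9, 14 and 17.2 CPM against 12.3, 10.2 and 11.8 CPM, with no overlap. Input had 339 CPM of Dst, above the saline IP mean of 197 CPM, and 16.2 CPM of Pcnt. The exon models of Dst and Pcnt, and also those of Kdm7a, Homer2, Stk32c, Kcnh3 and Pstpip2, overlap another gene model on the other strand. Pcnt overlaps a further model on the same strand.

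Kinase, channel and membrane genes followed. Stk32c (chr7:139103638-139213307, minus strand), a protein kinase gene, had 91.8, 95.6 and 78.8 CPM after saline and 60.2, 78.2 and 52.0 CPM after cocaine. The groups did not overlap, and cocaine IP 3 had 55.5 and cocaine IP 5 78.8 CPM. The log2 difference was −0.50 ± 0.09 (adjusted p = 0.147), and −0.19 with lane as a term. Kcnh3, a voltage-gated potassium channel gene, had 24.6, 42.6 and 33.8 CPM against 19.5, 31.7 and 26.3 CPM, and Atp9a, a phospholipid flippase, 67.5, 124 and 94.0 CPM against 44.7, 99.3 and 76.0 CPM. In both, pair 1 was low as a whole and the spread between pairs was larger than the difference within them. AK030646, listed under the name of a sequence record and without a match in GENCODE, had 6.10, 7.61 and 8.80 CPM against 3.40, 4.39 and 4.31 CPM, but 7.52 and 8.36 CPM in cocaine IP 3 and 5. It was depleted in IP RNA, with 36.2 CPM in input. Fibcd1, a membrane receptor that binds acetylated sugars, had 7.82, 10.7 and 8.43 CPM against 4.02, 7.38 and 6.74 CPM, and cocaine IP 3 and 5 had 10.3 and 11 CPM, the latter above all saline libraries. With lane as a term, 12 of the 12 higher and 10 of the 12 lower leading genes kept their sign; Pstpip2 became 0.26 and Abhd11os 0.15.

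**Figure D4:**
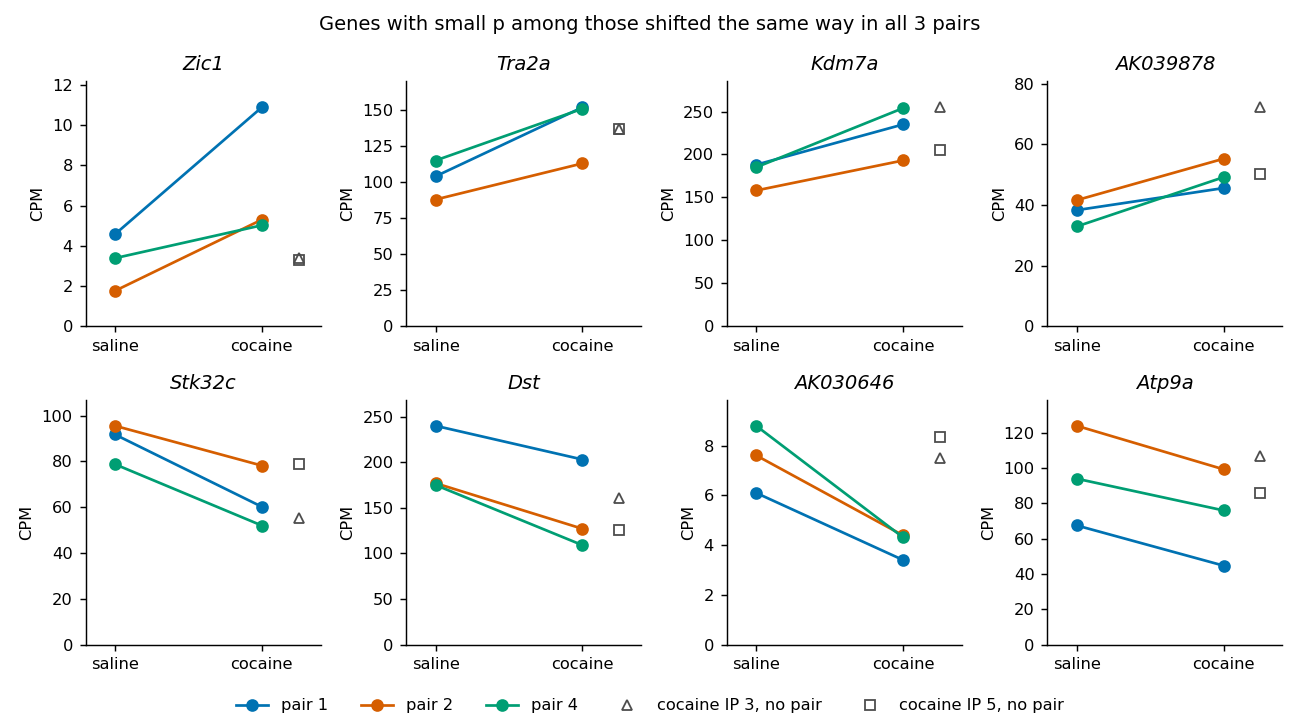
CPM after saline and cocaine of 4 genes in each direction with small p among those shifted the same way. Lines join the libraries of a pair and open symbols are cocaine IP 3 and 5; in Zic1 these lie at 3.41 and 3.27 CPM, at the saline level, and in Kdm7a above all saline libraries.

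No marker of the captured neurons passed the test. Drd2 was lower in all 3 pairs, with 2400, 2580 and 2160 CPM after saline and 2050, 2450 and 1670 CPM after cocaine (−0.23 ± 0.09, adjusted p = 0.747). The groups overlapped, and with lane as a term the value was 0.06. Adora2a, an adenosine receptor gene, was lower in all 3 pairs as well (−0.15 ± 0.08), and 0.09 with lane as a term. The glutamate receptor gene Grik3 had −0.19 ± 0.08. Penk, the enkephalin precursor, had −0.20, 0.13 and −0.01 in the 3 pairs. In all, 1 of 11 indirect-pathway markers was higher (9.09%) and 4 lower (36.4%) in every pair, beside 12.9% and 14.6% of all genes (median log2 difference −0.07, against −0.01 over all genes tested). Of 9 direct-pathway markers, Isl1 and Chrm4 were higher in every pair (22.2%) and none lower. With lane as a term, Chrm4 became −0.50. Isl1 is also a gene of cholinergic interneurons, whose 9 markers summed to 42.6, 22.4 and 27.7 CPM after saline and 56.7, 23.8 and 27.7 CPM after cocaine; the part of these cells in the Isl1 level was not tested. Drd1 had −0.13, −0.13 and 0.05, and Pdyn and Tac1 went both ways. Of 15 genes shared by both MSN types, 3 were higher (20%) and 2 lower (13.3%) in every pair, beside 12.9% and 14.6% of all genes. The cAMP-forming enzyme gene Adcy5 had −0.26 ± 0.09 and the phosphatase gene Ptpn5 0.12 ± 0.08. Rpl10a had 0.00 ± 0.22; its reads can also come from the transgene.

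Markers of glutamatergic neurons, whose cell bodies lie outside the striatum, were higher in sum after cocaine in each pair. Their sum over 10 genes was 15.1, 4.73 and 20.8 CPM in saline IP 1, 2 and 4, 28.0, 30.5 and 23.6 CPM in cocaine IP 1, 2 and 4, and 214 CPM in input. Saline IP 2 was low and the pair with it had the largest difference, but cocaine IP 3, at 4.05 CPM, was lower still. Of the 7 tested, 3 were higher in every pair (42.9%) and none lower, beside 12.9% and 14.6% of all genes. Neurod2 had 0.625, 0.274 and 1.23 CPM after saline and 1.79, 2.81 and 2.08 CPM after cocaine (log2 difference 1.74 ± 0.44, adjusted p = 0.50), with 0.0637 CPM in cocaine IP 3. Tbr1 had 3.88, 1.10 and 4.87 CPM against 6.84, 5.88 and 7.02 CPM. Slc17a7, the vesicular glutamate transporter gene, had 3.82, 1.27 and 4.61 CPM against 5.41, 9.32 and 4.70 CPM. The list's median log2 differences were 0.81, 2.81 and 0.03 in pairs 1, 2 and 4. Without pair 2 the median of its fitted values was 0.53 in place of 1.14. The part of this RNA in the higher levels of Zic1, Etv1, Hivep1 and Efr3a was not tested.

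Ependymal and choroid plexus markers went the other way. Their sum was 66.1, 38.5 and 40.9 CPM after saline and 51.8, 34.9 and 40.0 CPM after cocaine. Of 6 tested genes, 3 were lower in every pair (50%) and 0 higher, beside 14.6% and 12.9% of all genes. Ttr, the transthyretin gene and a marker of choroid plexus, had 4.28, 0.274 and 0.706 CPM against 0.711, 0.0365 and 0.196 CPM (−2.39 ± 0.49, adjusted p = 0.210). Saline IP 1 alone stood high, and the other values were near the floor of 3 reads (0.095 to 0.117 CPM) or a few times above it. Without pair 1 the list's median was 0.01 in place of −0.30. Astrocyte markers summed to 403 to 548 CPM and oligodendrocyte markers to 224 to 541 CPM in the 6 libraries, with 1 and 2 of the 3 pairs lower after cocaine.

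Immediate early genes, transcribed rapidly when neurons fire, differed in direction between pairs, with medians of 0.02, −0.28 and −0.31 in pairs 1, 2 and 4. Of 18 tested, 0 were higher and 2 lower (11.1%) in every pair, beside 12.9% and 14.6% of all genes. Arc had 32.4, 47.9 and 34.8 CPM after saline and 41.0, 29.4 and 15.6 CPM after cocaine, with 16.3 and 12.7 CPM in cocaine IP 3 and 5. Pair 1 was higher and the other two lower; without pair 1, Arc was among the 17 genes called, as were Nr4a1, Junb and Egr2, 3 genes of the same list named here after their values were seen. Fos went from 1.56 to 3.0 CPM in pair 1, from 3.09 to 2.27 CPM in pair 2 and from 1.75 to 0.314 CPM in pair 4. Npas4 was lower in pairs 1 and 2 and higher in pair 4. Btg2 and Jund were the 2 lower in every pair (−0.44 ± 0.22 and −0.16 ± 0.09). Of 34 dopamine and cAMP signalling genes, 10 were higher (29.4%) and 5 lower (14.7%) in every pair, beside 12.9% and 14.6% of all genes, with medians of 0.01, 0.01 and 0.04 in the 3 pairs. Creb1, the cAMP-responsive transcription factor, had 0.25 ± 0.08 (adjusted p = 0.678), with each cocaine library above its partner, and Gnai1, a G protein subunit that inhibits cAMP formation, 0.24 ± 0.09. Cartpt, the precursor of the CART peptide, had 1.53, 1.10 and 1.71 CPM against 2.01, 2.16 and 2.74 CPM, with 3.66 and 5.43 CPM in cocaine IP 3 and 5 (0.67 ± 0.30, adjusted p = 0.747). All 5 cocaine libraries were above the 3 saline ones. Bdnf was listed at 0 in saline IP 2 and under 1 CPM in all 6 libraries.

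Chaperone, clock, glycolysis and splicing lists had more members higher than lower. Of 23 heat shock chaperone genes tested, 7 were higher (30.4%) and 0 lower in every pair, beside 12.9% and 14.6% of all genes. Their medians were 0.06, 0.11 and 0.12 in the 3 pairs, and 8 were higher and 0 lower with the GC trend removed. Dnajb5 had 39.2, 75 and 62.8 CPM after saline and 56.2, 82.9 and 82.7 CPM after cocaine (0.35 ± 0.09, adjusted p = 0.50), but 38.2 CPM in cocaine IP 5. Hspa4l had 0.24 ± 0.08 and Hspb8 0.41 ± 0.18. Of 21 circadian clock genes, 7 were higher (33.3%) and 1 lower. With the GC trend removed 5 were higher and 0 lower, and the median went from 0.028 to 0.017. Cry1, a repressor in the clock, had 49.4, 45.4 and 41.0 CPM against 52.9, 57.3 and 61.2 CPM, and 73.9 and 65.5 CPM in cocaine IP 3 and 5, so that all 5 cocaine libraries lay above the saline ones (0.34 ± 0.10, adjusted p = 0.586; 0.43 with lane as a term). Per2 had 18.4, 27.8 and 25.4 CPM against 19.6, 31.3 and 44.6 CPM and was 0.00 with lane as a term. Time of dissection is not given, so its part in the clock genes was not tested.

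Of 15 glycolysis genes, 5 were higher (33.3%) and 0 lower in every pair, beside 12.9% and 14.6% of all genes. Their medians were 0.02, −0.02 and 0.14. Among them Aldoc, also an astrocyte gene, had 60.5, 8.74 and 27.8 CPM against 71.5, 16.1 and 29.4 CPM, where the spread between pairs far exceeded the differences, and input had 289 CPM. Gapdh has many near-identical copies and its count is uncertain. Of 44 splicing factor genes, 12 were higher (27.3%) and 3 lower (6.82%). Tra2a led the first. Snrpd3, a core spliceosome protein gene, was lower, with 77.2, 55.2 and 60.3 CPM against 55, 49.5 and 28.8 CPM (−0.56 ± 0.14, adjusted p = 0.50). So was Raly (−0.56 ± 0.15), whose exon model overlaps another gene model on the same strand. The splicing list was poorer in GC (median 48.2%) than all genes tested (50.7%), and with the GC trend removed 11 of its genes were higher and 3 lower in every pair. Of 47 genes for the COP9 signalosome, cullins and ubiquitin-conjugating enzymes, 11 were higher (23.4%) and 3 lower (6.38%), and with the GC trend removed 9 were higher and 3 lower, while the median went from 0.05 to 0.01; Ube2w had 0.26 ± 0.08 and Cul3, the scaffold of a ubiquitin ligase, 0.17 ± 0.08. With lane as a term the medians of the glycolysis and splicing lists were −0.04 and −0.05, those of the chaperone and clock lists 0.04 and 0.02.

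Ion channel and cholesterol lists had more members lower than higher. Of 23 voltage-gated calcium and sodium channel genes, 1 was higher (4.35%) and 7 lower (30.4%) in every pair, beside 12.9% and 14.6% of all genes. Their median was −0.06. Cacna1h, a T-type calcium channel gene, had 24.3, 40.8 and 33.5 CPM against 17.3, 31.8 and 31.3 CPM (−0.31 ± 0.11, adjusted p = 0.701); Cacnb3 had −0.20 ± 0.08 and Cacna1d −0.29 ± 0.12. Of 28 voltage-gated potassium channel genes, 3 were higher (10.7%) and 7 lower (25%). With the GC trend removed, 2 calcium and sodium channel genes were higher and 7 lower, with a median of −0.027. For potassium channels these were 1, 6 and −0.025. Without pair 1 the medians of both channel lists were 0.00, and with all 8 IP libraries and no pairing they were 0.08 and 0.01; with lane as a term they were −0.27 and −0.17, against −0.06 for each in the fit by pairs. Of 23 cholesterol synthesis genes, 1 was higher (4.35%) and 7 lower (30.4%), with pair medians of 0.02, −0.07 and −0.02; with the GC trend removed, 4 were lower in every pair. Scap, the escort of the sterol-sensing factor, had −0.27 ± 0.10 (adjusted p = 0.747). The cholesterol list's median was −0.09 in the fit by pairs and −0.24 with lane as a term.

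Structural and synaptic lists were mixed. Of 28 dendritic spine actin genes, 8 were higher (28.6%) and 5 lower (17.9%) in every pair, beside 12.9% and 14.6% of all genes. Ppp1r9a, for the actin-binding protein neurabin, had 1510, 1270 and 1260 CPM against 1250, 1070 and 957 CPM, with no overlap (−0.31 ± 0.08, adjusted p = 0.532), and Dbn1, for drebrin, had −0.31 ± 0.08, whereas Cfl2, a cofilin gene, had 0.22 ± 0.08. Of 30 vesicle release genes, 5 were higher (16.7%) and 6 lower (20%). The large active zone scaffolds Pclo and Bsn had −0.25 ± 0.08 and −0.23 ± 0.08, and Rab3c 0.17 ± 0.08; Bsn became 0.03 with all 8 IP libraries. Of 14 glucocorticoid targets, 2 were higher (14.3%) and 4 lower (28.6%). Cdkn1a, a cell cycle inhibitor, had −0.44 ± 0.13 and Fkbp5 −0.12 ± 0.08. Ribosomal protein genes went opposite ways by pair, with medians of 0.16, −0.24 and −0.07 over 80 genes. In every pair 5 were higher (6.25%) and 7 lower (8.75%). Complex I of the respiratory chain did likewise, with 0.14, −0.13 and −0.07 over 36 genes and 0 higher and 2 lower (5.56%). Reads placed at several sites were not counted. They made up 47.1% in saline IP 1 and 40.5% in cocaine IP 1, with smaller gaps in pairs 2 and 4. The part of this in either list was not tested. With lane as a term, the medians of the immediate early, spine actin, vesicle release and glucocorticoid lists were 0.05, −0.04, −0.12 and 0.01, against −0.17, 0.01, 0.00 and −0.10 in the fit by pairs.

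**Figure D5:**
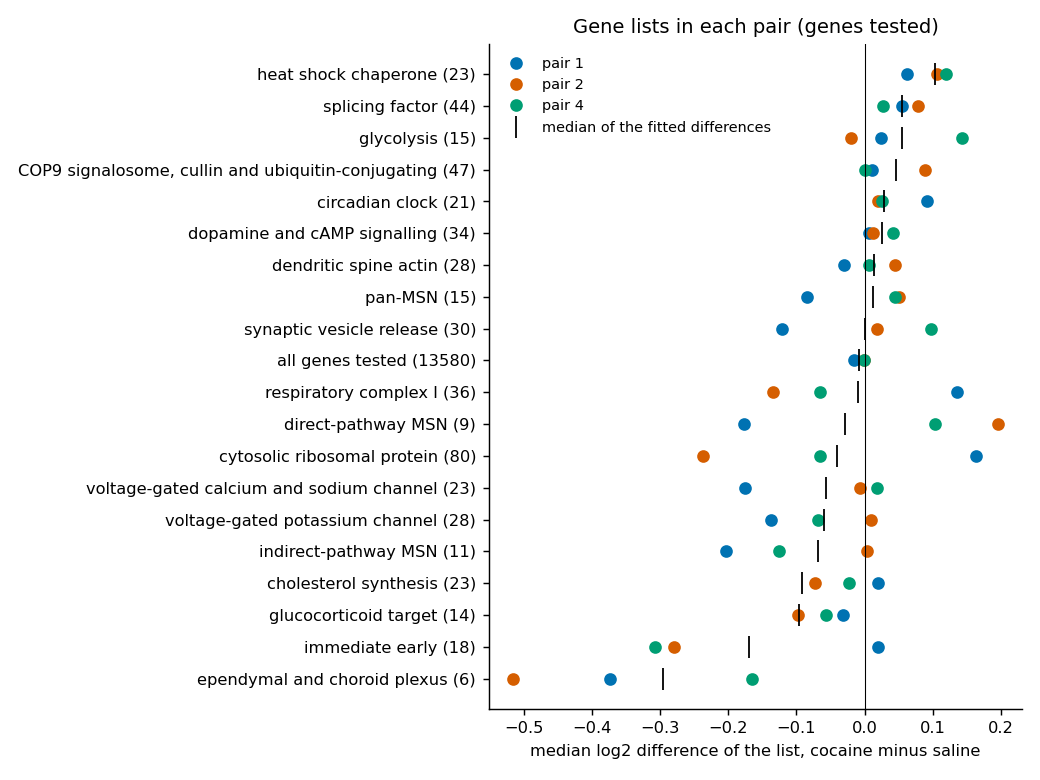
Median log2 difference, cocaine minus saline, of each gene list described and of all genes tested, in pairs 1, 2 and 4 (coloured points) and as the median of the fitted values (black tick); numbers in brackets are genes tested. The glutamatergic neuron list (fitted median 1.14) is off the scale and left out. Chaperone and splicing lists lie right of 0 in every pair, and ribosomal and complex I lists lie on both sides.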

How the data were processed

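Polysomes were captured with antibodies to EGFP and their RNA sequenced, per the labels' protocols. The authors deposited 1 table of raw read counts per library, listing 32531 gene symbols, made with STAR 2.0.0e and HTSeq on mm10 per the submitters' processing notes. For annotation and strand setting the sources used here give nothing; 29 of 96 named genes overlap another gene model in GENCODE and are uncertain for that reason. Groups, replicate numbers and lanes come from the sample titles and descriptions. HTSeq's special counters were left out. In the 6 libraries, reads in no feature were 13.0% to 14.4% of the gene, no-feature and ambiguous reads together. Those placed at several sites were 38.1% to 47.1% of a larger total, gene reads plus all special counters. Rn45s took 4.67% to 7.30% of gene reads.

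Counts were tested in edgeR 4.0.16 (R 4.3.3), by its two-sided quasi-likelihood test with robust moderation, TMM scaling, filterByExpr and the replicate number as a block, adjusted by Benjamini-Hochberg over 13580 genes; 2 residual degrees of freedom remained. A pair difference is the log2 TMM-scaled CPM (prior count 2) of the cocaine minus the saline library. Pairing by number was set in advance, and no label says what a number stands for. Deviations from the group means correlated at 0.731, 0.736 and 0.437 within a number and −0.630 to −0.026 between numbers (9621 genes of at least 5 CPM). Deviations in a group sum to 0, so high values within numbers bring low ones between them. GC content and length are medians over a gene's GENCODE transcripts (GRCm38), and their lowess trends (span 0.3) were removed per library as alternatives, beside DESeq2 1.42.0, limma 3.58.1, other scalings, filters and lane. The steps were tested on simulated data.

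Named were, of genes of at least 5 CPM shifted the same way, the 12 per direction with the largest smallest difference and the 5 with the smallest p, skipping predicted genes; up to 3 such members per list; and 16 fixed genes such as Drd2. Some genes that this rule names are not reported here. Members and lists were chosen with earlier results of these data known, and the 20 lists described were picked from 51 after their values were seen; so lists carry no test.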

Additional observations from a re-analysis of the deposited data

Results flagged for a closer look

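Among the 5 cocaine IP libraries, 1 library stood apart from the rest by a gap that is large for the group's range (Dixon's criterion at 95%, which chance meets in about 1 in 20 groups) for 8 named genes. Cocaine IP 1 was high for Zic1 (10.9 CPM), Isl1 (7.05 CPM), Aldoc (71.5 CPM) and Hspb8 (10.9 CPM), and saline IP 1 was the highest of the saline libraries for each of these. Cocaine IP 4 was high for Mvk (7.02 CPM), a cholesterol synthesis gene, and low for Rps18 (13.3 CPM). Cocaine IP 3 was low for Tbr1 (0.701 CPM) and cocaine IP 5 for Ppp1r1b (1780 CPM), the latter 2 being libraries outside the pairs.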

How the results depend on the processing

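The count of genes past an adjusted p of 0.05 was 0 without the pairing, with lane as a term, with all 8 IP libraries, in limma-voom, and under the other scalings, the 5 CPM minimum, the length and GC corrections and the fit without robust moderation, an alternative added after seeing the data. It was 4 in DESeq2, 46 with no filter and 6 to 17 with 1 pair left out. Without the replicate block, 135 genes were at p under 0.05 in place of 902, and 121 with lane as a term, 286 with all 8 IP libraries and 490 in DESeq2. With 1 pair left out, agreement of the 2 pairs that remained was met by 3312 to 3529 genes higher and 3584 to 3790 lower, a looser rule than 3 pairs, and a log2 difference of at least 0.32 in both by 377 to 460 and 393 to 512. The counts at that size in all 3 pairs were 355 and 321 with no filter and 11 and 10 at 5 CPM or more; the smaller set of genes tested sets the last.

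Signs turned for these log2 differences, whose cause was not tested. With lane as a term: Abhd11os 0.15, Actn2 0.09, Adora2a 0.09, Arc 0.02, Chrm4 −0.50, Drd2 0.06, Fkbp5 0.09, Fos 0.59, Gapdh −0.02, Jund 0.08, Ndufb11 0.04, Ndufb9 0.19, Npas4 1.75, Nr3c1 −0.01, Pdyn −0.58, Pstpip2 0.26, Rsph1 0.22 and Tac1 0.20. With all 8 IP libraries: Adcy5 0.00, Bsn 0.03, Drd1 0.14, Jund 0.02, Penk 0.21, Ppp1r1b −0.08, Rpl10a −0.07 and Tac1 0.20. Penk was 0.02 with the GC trend removed and 0.01 without the replicate block. With 1 pair left out, the values ran from −0.11 to 0.06 for Penk, −0.05 to 0.16 for Ppp1r1b, −0.03 to 0.16 for Homer1, −0.11 to 0.31 for Pdyn, −0.22 to 0.14 for Tac1, −1.18 to 0.24 for Fos and −0.03 to 0.04 for Rpl10a. Without the block no other named gene turned sign and none passed.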
